A study of Mus musculus with 2 samples.

Results

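In data from lymphoid tissue inducer (LTi) cells, chromatin islands lay within 10 kb of all 4 genes of the RUNX transcription factor family and its partner. These are Runx1, Runx2, Runx3 and Cbfb, and 54.7% of all protein-coding genes had an island within 10 kb. An island is a stretch of clustered reads. The reads came from ChIC-seq, in which an antibody, here one against TCF-1, carries a nuclease to the protein it recognises on chromatin, and the DNA released by the nuclease is sequenced. Members were the islands that overlapped, by at least 1 bp, the RefSeq body of one of the 4 genes or the 10 kb on either side of it (mm10). By this rule 23 of the 19531 islands in the deposited table were members, 8 at Runx1, 4 at Runx2, 9 at Runx3 and 2 at Cbfb, and no island was shared between these loci.

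The series holds 2 libraries of LTi cells from C57BL/6 mice, sorted as lineage-negative cells with CD127 and CCR6 and without KLRG1, NK1.1 and NKp46. The Tcf7fl/fl-VavCre library was made from small-intestinal lamina propria cells, and the Tcf7+/+ library from Peyer's patch cells. Tcf7 encodes TCF-1, and VavCre removes floxed segments in blood-forming cells and their descendants, so that the loss is not particular to LTi cells. Genotype and tissue differed together with 1 library each, and there is no replicate.

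The deposited table gives reads of a peak and of a control library, and its header ties neither of them to a genotype. Values are thus named after these columns of the authors' deposited table, and they carry no direction between genotypes. The table held 483771 peak-library and 189291 control-library reads. Folds divide peak reads by control reads times 2.00, the scaling factor recovered from the authors' deposited folds, and the bracketed 95% intervals are exact, conditional on the summed reads, and cover counting error only. For the 19513 nuclear islands that held under 200 peak-library reads, the fold of the summed reads was 1.62 (1.61 to 1.63). Islands were chosen by the caller for their peak-library reads, which raises folds in every locus.

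The Tcf7 gene had 9 islands within 10 kb, with 143 against 31 reads, which does not check the genotype labels because exons were not told apart. An island lay at 7 of 7 marker genes listed for LTi cells, 4 of 4 for B cells, 2 of 4 for epithelium and 1 of 3 for myeloid cells, and at 54.7% of all protein-coding genes. Counting just islands whose FDR in the authors' deposited table was at most 0.05, these were 7 LTi, 3 B cell, 1 epithelial and 1 myeloid marker, and 40.3% of all protein-coding genes. Islands are not expression, and the part of other cells in the results was not tested.

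RUNX1, RUNX2 and RUNX3 are transcription factors that bind DNA through the Runt domain, and CBF-beta, the product of Cbfb, binds no DNA itself but joins them and strengthens their hold on it. Each of the 3 Runx genes is known to be read from a distal promoter at the 5′ end and from a proximal promoter further inside the gene. RUNX1 with CBF-beta is known in mice to be needed for LTi cells to form, RUNX3 is known for its role in CD8 T cells and innate lymphoid cells, and RUNX2 is best known in bone-forming cells.

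Islands covered the distal start of Runx1, the distal start of Runx3 and the start of Cbfb, and left the other 3 RefSeq starts of these genes free. The RefSeq promoter table gave 6 starts for the 4 genes, of which 3 were covered, against 36.2% of the 21263 starts of protein-coding genes. The proximal start of Runx1 lay 63.5 kb from the nearest island and the start listed for Runx2 lay 34.4 kb from it. No proximal start is listed for Runx2, so whether an island covers it was not examined. The proximal start of Runx3 fell 456 bp short of an island on its 3′ side. For the proximal starts the 300-base windows held 69.0% G and C at Runx1 and 77.3% at Runx3. For the distal starts these shares were 45.0% at Runx1, 63.7% at Runx3 and 45.3% at Runx2, and the window at Cbfb held 69.7%.

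Within the windows of the 3 distal starts, an identical run of 18 bases was present. It is shown because it is the longest run that the 3 windows share. It holds the RUNX motif, TGTGGT, on the reverse strand in 2 copies. The islands that lay over it at Runx1 and Runx3 are 2800 and 2000 bp wide. How often islands of such width hold this 6-base motif was not examined, so the overlap does not show binding by RUNX proteins. The capitals mark the shared run, each line is read 5′ to 3′ along the gene, and the sequences are RefSeq's for GRCm38.p6, the mm10 build.
Runx1, chr16:92826026-92826053, minus strand: ataaaCAACCACAGAACCACAAGttggg
Runx2, chr17:44814584-44814611, minus strand: acaaaCAACCACAGAACCACAAGtgcgg
Runx3, chr4:135120504-135120531, plus strand: tccctCAACCACAGAACCACAAGgccag

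The run began 26 bases after the distal start of Runx1 and 21 bases after that of Runx2, and 136 bases before that of Runx3. Of 32851 RefSeq promoter windows, 4 (0.0122%) held it on either strand. Besides the 3 Runx genes this was Gm16225, a long noncoding RNA gene that starts next to Runx3 on the other strand and whose window overlaps that of Runx3. Because the run was picked as shared by the 3 Runx windows, this share does not measure how particular it is to the family. The run lay inside an island at Runx1 and at Runx3, and in no island at Runx2.

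The bases before the 3 starts that islands covered are shown next, since they are the promoter sequence under the signal. Capitals mark TGTGGT on either strand, and the windows were also searched on both strands for the TCF motifs CTTTGAT and CTTTGAA. No window of the 4 genes held either TCF motif, which says only that these letters are not in these 300 bases. Over all 32851 windows, CTTTGAT was found in 3.73%, CTTTGAA in 5.14% and TGTGGT in 16.8%, with 2 or more copies of TGTGGT in 1.81%. The motifs CTTTGAT and CTTTGAA differ from each other in their last letter. Runx1 and Runx3 had 2 copies of TGTGGT in their distal windows, Runx2 had 3, and the Cbfb window and both proximal windows had none.
Runx1, chr16:92826075-92826324, minus strand: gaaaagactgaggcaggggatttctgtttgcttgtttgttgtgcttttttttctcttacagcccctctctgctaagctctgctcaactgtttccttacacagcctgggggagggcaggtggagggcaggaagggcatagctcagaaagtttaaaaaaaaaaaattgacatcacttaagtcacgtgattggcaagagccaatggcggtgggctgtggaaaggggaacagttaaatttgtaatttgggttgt
Runx3, chr4:135120395-135120644, plus strand: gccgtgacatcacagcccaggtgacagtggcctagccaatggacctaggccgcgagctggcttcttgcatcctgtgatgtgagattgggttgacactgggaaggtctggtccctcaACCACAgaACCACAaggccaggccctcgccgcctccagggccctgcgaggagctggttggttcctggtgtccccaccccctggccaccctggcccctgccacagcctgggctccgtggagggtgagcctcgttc
Cbfb, chr8:105170424-105170673, plus strand: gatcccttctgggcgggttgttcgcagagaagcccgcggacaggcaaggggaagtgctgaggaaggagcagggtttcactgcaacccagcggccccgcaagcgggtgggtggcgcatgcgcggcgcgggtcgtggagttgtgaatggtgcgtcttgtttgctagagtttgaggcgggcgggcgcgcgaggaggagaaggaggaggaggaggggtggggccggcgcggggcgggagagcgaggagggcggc

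**Figure D1:**
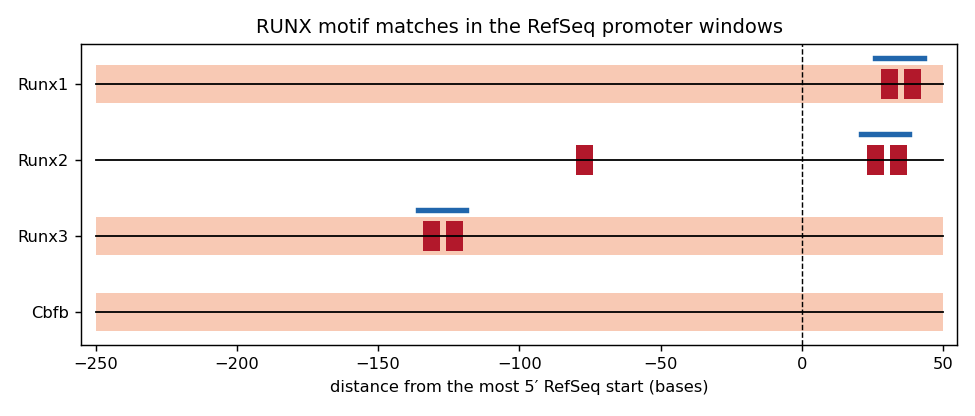
Matches to TGTGGT (red) and the 18-base run shared by the 3 Runx genes (blue) by distance in bases from the most 5′ RefSeq start, with windows that lie in an island shaded. The run lies after the start at Runx1 and Runx2, before it at Runx3, and in no island at Runx2.

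The island over the distal start of Runx1 held 57 peak-library and 13 control-library reads, a fold of 2.20 (1.19 to 4.37). The island over the distal start of Runx3 held 36 and 8 reads, a fold of 2.25 (1.03 to 5.61). At the start of Cbfb 30 and 3 reads were counted, a fold of 5.01 (1.56 to 25.6). All 3 intervals lay above 1, and so did those of 15.1% of all islands. Pooled, these 3 islands had a fold of 2.57 (1.65 to 4.16), while the 6051 nuclear islands of under 200 peak-library reads that cover a start of a protein-coding gene had 1.41 (1.40 to 1.43) and the other 13462 had 1.79 (1.78 to 1.81). The remaining 20 member islands stood at 2.15 (1.72 to 2.71). These intervals leave out the spread between islands, and 3 islands do not show what starts of this family share.

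Runx1 (chromosome 16, 92601466 to 92826074, minus strand) encodes the RUNX factor best known from blood formation, and its islands were gathered at the 5′ end. The 5 islands nearest the distal start lay between 1.53 kb before it and 24.5 kb inside the gene and held 162 of the 204 peak-library reads of the locus (79.4%). After the island over the start, the next, from 2.07 to 4.87 kb inside the gene, had 42 peak-library and 12 control-library reads. The third, from 6.07 to 9.07 kb, had 36 and 7 reads. The fourth, at 12.1 to 13.5 kb, had 14 and 3, and the fifth, at 23.9 to 24.5 kb, had 13 and 2. Read counts of both libraries were thus lower with each island away from the start, while the folds stayed between 1.75 and 3.26. The islands also differed in width, and per kb of island the peak-library reads were 20.4, 15.0, 12.0, 10.0 and 21.7 from the first to the fifth.

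Further inside Runx1 the islands were sparse. The sixth, at 47.7 to 48.9 kb, had 12 peak-library and 2 control-library reads. The seventh, at 63.5 to 65.3 kb, had 16 and 4 reads and overlaps the start of Gm30281, a long noncoding RNA gene on the other strand. The eighth, at 204 to 206 kb, near the 3′ end, had 14 and 4 reads and was alone beyond the proximal start, 139 kb from its nearest neighbour. The 7 islands on the 5′ side of the proximal start had 190 against 43 reads, a fold of 2.21 (1.58 to 3.16). Over the whole locus 204 peak-library and 47 control-library reads gave a fold of 2.17 (1.58 to 3.05).

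Runx3 (chromosome 4, 135120645 to 135177990, plus strand) had the most islands of the 4 genes although it is the shortest of the 3 Runx genes at 57.3 kb, and 7 of the 9 lay in 2 groups near its starts. The first group was 4 islands within 9.36 kb of the distal start. After the 36 and 8 reads over the start itself, the second island had 19 peak-library and 5 control-library reads, the next 10 and 2, and the last of the group 19 and 4. Their pooled fold was 2.21 (1.33 to 3.86). The first of them also covers the start of Gm16225, so its reads cannot be assigned to one of the 2 genes.

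The second group of Runx3 islands flanked the proximal start and had the lowest folds of the locus. The fifth island, which ends 1545 bp before that start, had 15 peak-library and 7 control-library reads, a fold of 1.07 (0.412 to 3.11). The sixth, 456 bp after the start, had 20 and 9 reads, a fold of 1.11 (0.484 to 2.78). The seventh, the widest of the 23 at 4000 bp, had 40 and 15 reads, a fold of 1.34 (0.722 to 2.60). Pooled they stood at 1.21 (0.787 to 1.91). That interval includes 1 and also the 1.62 of nuclear islands, and it overlaps that of the first group. This grouping was made after the values were seen, and its difference has no test. Split at the proximal start itself, the 5 islands on its 5′ side had 1.91 (1.23 to 3.06) and the 4 on its 3′ side had 1.58 (1.01 to 2.56).

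Towards the 3′ end of Runx3 the eighth island had 11 peak-library reads and no control-library read. If 3 control reads per island are taken as the floor, this is a fold of 1.84, without counting error. The exact lower bound is 1.26. The ninth lay 611 bp beyond the gene and had 11 and 2 reads. Over the whole locus 181 peak-library and 52 control-library reads gave a fold of 1.74 (1.27 to 2.42), close to the 1.62 of nuclear islands. With the totals of the table set equal, the Runx3 fold was 1.36 (0.996 to 1.89) and the fifth and sixth islands lay below 1, at 0.838 and 0.870. At that scaling the nuclear islands of under 200 peak-library reads stood at 1.27 (1.26 to 1.27), and 5035 of these 19513 islands lay below 1.

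Beyond the 10 kb limit, Runx3 had 6 further islands on its 5′ side, between 18.6 and 46.6 kb from the gene, where no RefSeq gene is annotated under them. They held 97 peak-library and 14 control-library reads, a fold of 3.47 (1.97 to 6.58), and the nearest had 13 and 0 reads. On its 3′ side 1 island, 26.2 kb from the gene, had 35 and 11 reads, a fold of 1.59 (0.791 to 3.48), and all 7 together stood at 2.64 (1.71 to 4.23). The nearest islands outside the limit at the other genes were 41.3 kb from Runx1 with 13 and 3 reads, 48.2 kb from Runx2 with 14 and 1 reads, and 35.2 kb from Cbfb with 12 and 0 reads. The one near Runx2 overlaps Supt3, the one near Cbfb overlaps B3gnt9, and no RefSeq gene is annotated under the one near Runx1. Cbfb had 1 more, 45.6 kb from it over Tradd and Fbxl8, with 25 and 7 reads. Its 2 islands outside the limit together stood at 2.65 (1.16 to 7.04), much like the 7 of Runx3. The member islands that lay outside a gene body were 6812 bp from Cbfb and 611 bp from Runx3.

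Runx2 (chromosome 17, 44495987 to 44814797, minus strand), the longest of the 4 genes at 319 kb, had 4 islands, all of them inside the gene and away from its listed start. Its proximal start is not listed, so these islands were not placed against it. The first, at 34.4 to 38.0 kb inside, had 48 peak-library and 8 control-library reads, a fold of 3.00 (1.41 to 7.35). It covers the start of Supt3, a gene that runs on the other strand through the 5′ part of Runx2 and encodes a subunit of a transcription coactivator complex, so it cannot be assigned to Runx2 alone. The second, at 44.0 to 46.4 kb, had 16 and 1 reads, a fold of 8.01 (1.24 to 336). The third, at 77.2 to 80.0 kb, had 22 and 7 reads, a fold of 1.57 (0.649 to 4.36).

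The fourth island of Runx2, 244 to 246 kb inside the gene and 72.8 kb from its 3′ end, had 21 peak-library reads and no control-library read. Against the floor of 3 control reads this is a fold of 3.51, without counting error, and the exact lower bound is 2.61. Of all 19531 islands, 29 had no control read and 21 or more peak-library reads. In the authors' deposited table its FDR was 7.3e-26, a value that rests on 0.25 reads put in by the caller for the missing control reads. Over the Runx2 locus 107 peak-library and 16 control-library reads gave a fold of 3.35 (1.97 to 6.07). Without the island at Supt3, 59 and 8 reads gave 3.69 (1.76 to 8.95).

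Cbfb (chromosome 8, 105170674 to 105217989, plus strand), the gene of the shared partner, had 2 islands. The first, from 1.07 kb before to 1.53 kb after its start, held the 30 and 3 reads given above. The second had 17 peak-library and 3 control-library reads, a fold of 2.84 (0.821 to 15.1), and lay 6812 bp beyond the gene over the start of its neighbour D230025D16Rik. No island lay in the rest of the gene body. Over the whole locus 47 peak-library and 6 control-library reads gave a fold of 3.92 (1.67 to 11.2).

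**Figure D2:**
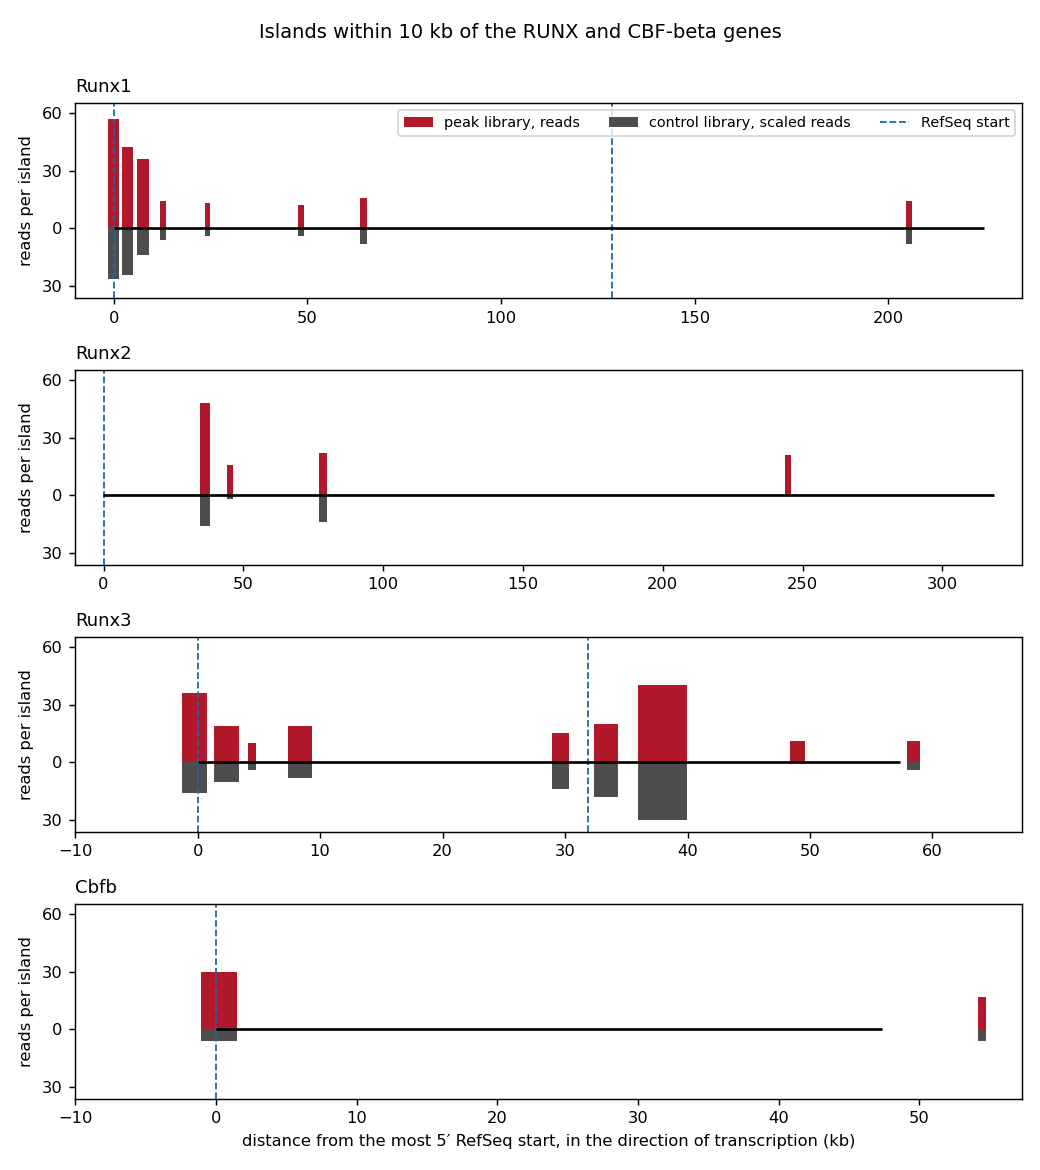
Reads per island, peak library upward and scaled control library downward, by distance in kb from the most 5′ RefSeq start of each gene. The black line is the gene, dashed lines are RefSeq starts, and the narrowest bars are widened to be visible. The Runx1 islands crowd at its 5′ end, and the 3 around the proximal start of Runx3 have folds of at most 1.34.

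Among the 23 islands, 20 were called at an FDR of 0.05 or less in the authors' deposited table, against a background of 62.5% of all islands. All islands of Runx1, Runx2 and Cbfb were called. The 3 that were not called were the fifth to seventh of Runx3, the last of them with an FDR of 0.0506 in the authors' deposited table. By an exact binomial test of both counts, adjusted over all islands by Benjamini-Hochberg, none of the 23 passed, against 0.297% of all islands, and 8 had an unadjusted p under 0.05, against 15.3%. All 23 had a fold above 1, as had 89.8% of all islands. With equal totals 21 did, and 74.1% of all islands. The exact interval lay above 1 for 8 islands, against 15.1% of all islands, namely 2 at Runx1, 3 at Runx2, 2 at Runx3 and the one over the start of Cbfb. The members were wider than the usual island, with a median of 2000 bp against 1400 bp over the table, and had a median of 19 against 16 peak-library reads and 4 against 4 control-library reads.

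**Figure D3:**
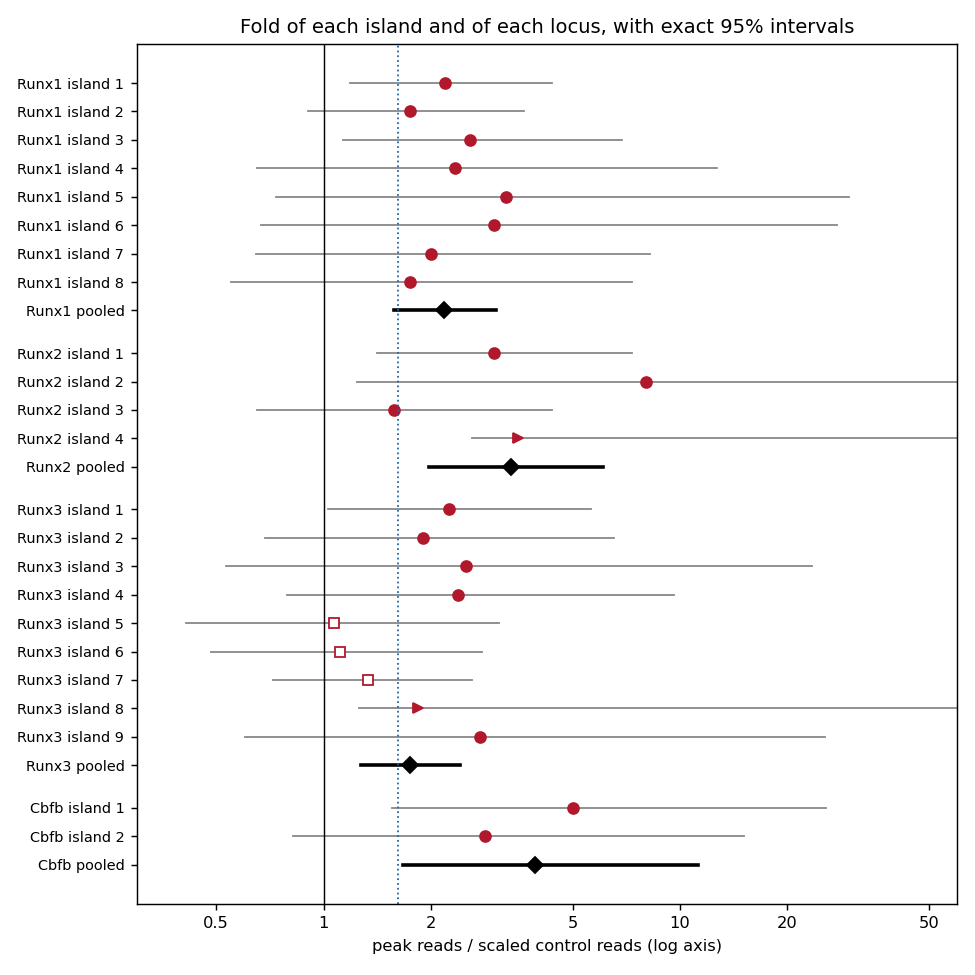
Fold of each island (red) and of each locus (black diamonds) on a log axis, with exact 95% intervals, islands numbered from the 5′ end. Open squares are islands that were not called, and triangles are islands without control reads, drawn at their fold against the floor of 3 control reads. Lines that reach the right edge go on, and the dotted line is the pooled fold of 1.62 of nuclear islands.

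The 4 loci could hardly be told apart by their folds. In 6 pairwise comparisons, a single ratio had a 95% interval without 1, that of Runx2 over Runx3 at 1.92 (1.02 to 3.79), and with the intervals widened for 6 pairs it ran from 0.837 to 4.80. Runx1 over Runx2 stood at 0.649 (0.328 to 1.23) and Runx1 over Runx3 at 1.25 (0.782 to 1.99). With Cbfb the ratios were 0.554 (0.183 to 1.41) for Runx1, 0.854 (0.257 to 2.48) for Runx2 and 0.444 (0.147 to 1.13) for Runx3. These ratios do not depend on the scaling of the libraries.

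The loci differed in how densely islands lay along them. Runx3 had 11.6 islands per 100 kb of locus, Runx1 3.27, Cbfb 2.97 and Runx2 1.18, while all 21887 protein-coding loci together had 1.67 and their median was 1.15. Islands covered 20.9% of the Runx3 locus, against 6.21% at Runx1, 4.75% at Cbfb and 3.19% at Runx2. As dense or denser were 3.07% of these loci for Runx3, 30.7% for Runx1, 33.2% for Cbfb and 49.7% for Runx2. In plain number, with no allowance for length, as many islands as at Runx3 were found at 119 protein-coding genes (0.544%, Runx3 included), and as many as at Runx1 at 162 (0.740%). The 2 islands of Cbfb were reached by 29.1% of genes and the 4 of Runx2 by 6.48%. Any island was found at 54.7% of protein-coding genes and a called one at 40.3%. Numbers and densities of islands depend on the gap across which the caller joins reads.

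**Figure D4:**
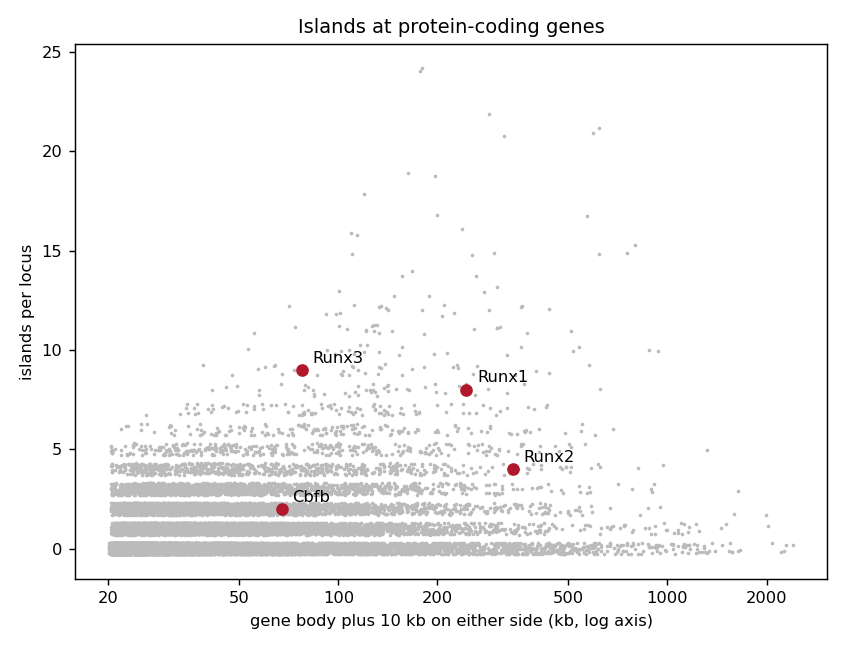
Islands per protein-coding locus against the length of gene body plus 10 kb on either side (log axis, kb), with the 4 genes in red and small random vertical shifts on the grey points. Runx3 has 9 islands in a short locus, and Runx2 has 4 in the longest of the 4.

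Most genes listed as partners of RUNX factors had an island, in a list chosen with earlier results of these data known and not matched for length. Of 22 listed partners, 19 (86.4%) had an island and 16 (72.7%) a called one, beside the 54.7% and 40.3% of all protein-coding genes, and their median fold was 1.57 beside 1.60. Kat6a, a histone acetyltransferase that works with RUNX1, had 3 islands with 47 against 8 reads, a fold of 2.94 (1.38 to 7.21). Smad3, a mediator of TGF-beta signals, had 8 islands with 210 against 43 reads and 2.45 (1.75 to 3.48). Tle3, a Groucho corepressor that binds RUNX and TCF factors alike, had 3 islands with 104 against 26 reads and 2.00 (1.29 to 3.21). Ncor1, another corepressor, had 8 islands with 167 against 43 reads and 1.94 (1.38 to 2.79). No island lay within 10 kb of the corepressor gene Runx1t1 or of the coactivator gene Crebbp.

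Of 16 genes known as RUNX targets in lymphocytes and related cells, 11 (68.8%) had an island and the same number a called one, beside 54.7% and 40.3% of all protein-coding genes, and their median fold was 1.88 beside 1.60. Within 50 kb an island was found at 15 of the 16 (93.8%), beside 68.3% of all protein-coding genes. At that distance the marker lists reached 7 of 7 for LTi cells and 4 of 4 for B cells. For epithelium it was 4 of 4 and for myeloid cells 2 of 3, so a high share was not particular to the targets. Prf1, which encodes perforin, had 21 against 1 reads in 2 islands, a fold of 10.5 (1.69 to 435). Spi1, which encodes PU.1, had 20 against 2 reads in 1 island and 5.01 (1.22 to 44.2). Itgae, the gene of the integrin chain CD103, had 53 against 13 reads in 4 islands and 2.04 (1.10 to 4.08). Zbtb7b, the ThPOK gene silenced by RUNX factors in CD8 T cells, had 94 against 24 reads in 2 islands and 1.96 (1.24 to 3.21). Cd8a, which encodes a CD8 chain, and Ifng, the interferon gamma gene, had none. Both lists were chosen with earlier results of these data known. They hold genes of different lengths, and their lengths were not matched to those of other genes.

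By island number, peak-library reads, fold and locus length together, over these 2 libraries, the protein-coding genes closest to Runx1 were Dock8 and Smg6, at log2 distances of 0.321 and 0.507. Tcf4 and Nav1 were closest to Runx2, at 0.443 and 0.472. Pik3cd was closest to Runx3, at 0.187, with 9 islands like Runx3. Fam227a and Src were closest to Cbfb, at 0.199 and 0.245.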

How the data were processed

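The submitters' processing notes name Bowtie2 2.4.2 as the aligner, SICER 2.0 as the island caller and mm10 as the build; caller settings are not stated there. For each island the authors deposited counts, as unscaled whole reads, for a peak and for a control library. They also deposited a fold, the ratio between peak and scaled control reads, with a p-value and an FDR. The scaling factor recovered from these folds, 2.00, did not vary over the 18419 islands that had a control read. Positions count from 1.

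Gene bodies and promoter windows (250 bases before to 50 after a start) came from RefSeq tables of GRCm38.p6, matched by symbol; all listed genes matched. The tables hold no exons, so exonic, intronic and UTR positions were not told apart. Intervals are Clopper-Pearson (SciPy 1.17.1), with the floor at 3 control reads. With 1 library per group there is no test between conditions. An exact binomial test over all islands, two-sided with Benjamini-Hochberg adjustment, was an alternative and was tested on simulated data. Those counts were drawn from the binomial model that the test assumes, so spread between libraries and choice by the caller were not covered. Depth is known only within islands. Members and lists were chosen with earlier results of these data known, and the shared-run search after the promoter sequences were seen. Genes named from the lists are the 4 with the highest fold among those with at least 20 peak-library reads and the first 2 without an island; likeness is Euclidean distance of log2 values. The rule names 2 genes for likeness per member, of which 1 gene is not reported here.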

Additional observations from a re-analysis of the deposited data

How the results depend on the processing

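No paired analysis was possible because each group has 1 library. Of 60 recomputed values, 41 stayed within 1.5 times the main count or inside the main interval and 19 moved; no locus changed direction, though with equal totals 2 of the 23 islands, both at Runx3, lay below 1. With gene bodies alone Cbfb kept 1 island. With 50 kb on either side Runx3 had 16 and Cbfb 4. With at least 20 peak-library reads required, 10 islands were left in all, 3 at Runx1, 3 at Runx2, 3 at Runx3 and 1 at Cbfb. At an FDR of 1e-05 or less, 7 islands were called (20.7% of all islands), 2 at Runx1, 3 at Runx2, 1 at Runx3 and 1 at Cbfb. The one at Runx3 was its eighth island, and the fourth of Runx2 was also among the 7. Neither has a control read, so both FDRs rest on the 0.25 reads put in by the caller. By the exact binomial test with Benjamini-Hochberg adjustment 0 were called, overall and at Runx1, Runx2, Runx3 and Cbfb each (0.297% of all islands), with 8 at an unadjusted p under 0.05 (15.3% of all islands) and a lowest adjusted p of 0.0790, at the fourth island of Runx2. Without scaling the folds were 4.34 at Runx1, 6.69 at Runx2 and 3.48 at Runx3, which follows from the factor; equal totals lower every fold by 0.36 on the log2 scale. Depth limits single islands, since the median member, like the median island of the table, had 4 control reads.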
